A study of Noccaea goesingensis with 12 samples.

Results

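Auxin is the hormone that patterns the root, and its action depends on where it is made, how it is carried between cells, how it is stored and how it is sensed. The 60 genes described here cover these steps in 8 families. Among them are 28 AUX/IAA repressors, 8 PIN carriers, 4 AUX1/LAX influx carriers and 7 GH3 conjugating enzymes. The others are 4 TIR1/AFB receptors, 5 ARF transcription factors, 1 TAA1 aminotransferase and 3 YUC monooxygenases. All 60 were taken as *A. thaliana* identifiers, because the reads of *N. goesingensis* were aligned to the *A. thaliana* genome. Of these 60 genes, 12 were listed as different between the ecotypes in at least 1 condition, and 5273 genes were listed in all. How many genes were tested is not known here, so the share listed over all tested genes cannot be given. A total of 7 were listed with Ni, 8 without Ni, and 3 in both conditions.

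The study set a serpentinite population (TM, called metallicolous in the labels) against a non-metallicolous population (NTM) of *Noccaea goesingensis*, a Ni hyperaccumulator, and sequenced poly(A) RNA of roots. The groups were TM with Ni (2 libraries), TM untreated control (4 libraries), NTM with Ni (3 libraries) and NTM untreated control (3 libraries), counted from the labels, while the methods give equal groups. The alignment summary of the study divides the TM libraries as the labels do, but a control library and a library with Ni appear to carry the same number, so a mix-up between the TM groups, on which all TM values rest, was not tested. By the methods, the Ni treatment ran for 3 weeks, and root RNA of 5 plants was combined in each library. The Ni dose is stated in the methods but not in the labels. The growth protocol of the labels differs from that of the methods in substrate and duration.

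The deposited tables hold 1 FPKM value for each group of libraries (fragments counted on a gene, scaled by its length and by sequencing depth), so no spread between libraries can be given, no test was made for any value below, and the read depth behind the values is unknown from the files. One of the NTM libraries with Ni was far shallower than the rest in the alignment summary of the study, and its weight in the NTM Ni values was not tested. Only genes under an unadjusted p-value of 0.05 between the ecotypes are in the tables, which were 1944 genes with Ni and 4460 genes without Ni. A listed gene therefore had to differ between the ecotypes, and its being listed is not a finding of its own. No listed gene had a log2 ratio of TM over NTM smaller in size than 0.74 with Ni or 0.55 without Ni, where all log2 ratios here are taken after adding 0.1 FPKM to both values. A gene that is not listed was above the p-value limit or was not tested, and its level is not known here.

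Auxin acts by bringing TIR1/AFB receptors and AUX/IAA proteins together, which marks the AUX/IAA proteins for degradation and frees the ARF factors they hold in check. AUX1/LAX proteins carry auxin into cells, and PIN proteins carry it within and out of them, which sets its direction of flow. GH3 enzymes join auxin to amino acids, while TAA1 and YUC enzymes make it from tryptophan. In roots this system is known for setting the stem cell niche, the bending of the tip to gravity and the start of lateral roots. These roles come from *A. thaliana*.

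Of the AUX/IAA family 8 of 28 members were listed in at least 1 condition, of the PIN family 2 of 8, of the AUX1/LAX family 1 of 4 and of the YUC family 1 of 3. None of the 7 GH3, 4 TIR1/AFB or 5 ARF members, and not the single TAA1 member, was listed in either condition. These counts cover the members only, and further genes of the GH3, YUC and ARF families are described below. No share over all tested genes can be set beside the counts. With Ni, 3 of the 7 listed members were higher and 4 lower in TM, where 53.8% of all 1944 genes were lower in TM. Without Ni, 4 of the 8 listed members were higher and 4 lower in TM, where 55.5% of all 4460 genes were lower in TM. Both splits lie near those of the whole tables.

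A log2 ratio past 1 was used to call a large difference. With Ni 5 of the 7 listed members passed it (2 higher and 3 lower in TM), next to 86.1% of all listed genes, 39.4% higher and 46.8% lower. Without Ni 3 of the 8 passed it (1 higher and 2 lower in TM), next to 60.2% of all listed genes, 27.4% higher and 32.8% lower. The median size of the members' log2 ratio was 1.09 with Ni and 0.84 without Ni, compared with 1.46 and 1.12 over all genes of the same tables. Both medians of the members were below those of the whole tables. Centring each table on its median ratio changed the large differences to 3 higher and 2 lower in TM with Ni, next to 63.0% of all listed genes past 1, and to 4 higher and 1 lower without Ni, next to 55.9%. It added AT3G23050 with Ni and AT2G22670, AT1G23080 and AT1G04180 without Ni, and removed AT1G51950 and AT4G32280. The median ratio was -0.91 with Ni and -0.71 without Ni. As no gene with a small ratio is listed, it lies at the inner edge of the genes lower in TM. Centring must therefore shrink modest differences lower in TM and enlarge all those higher in TM. A small centred ratio does not show that a gene was alike in the ecotypes.

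**Figure D1:**
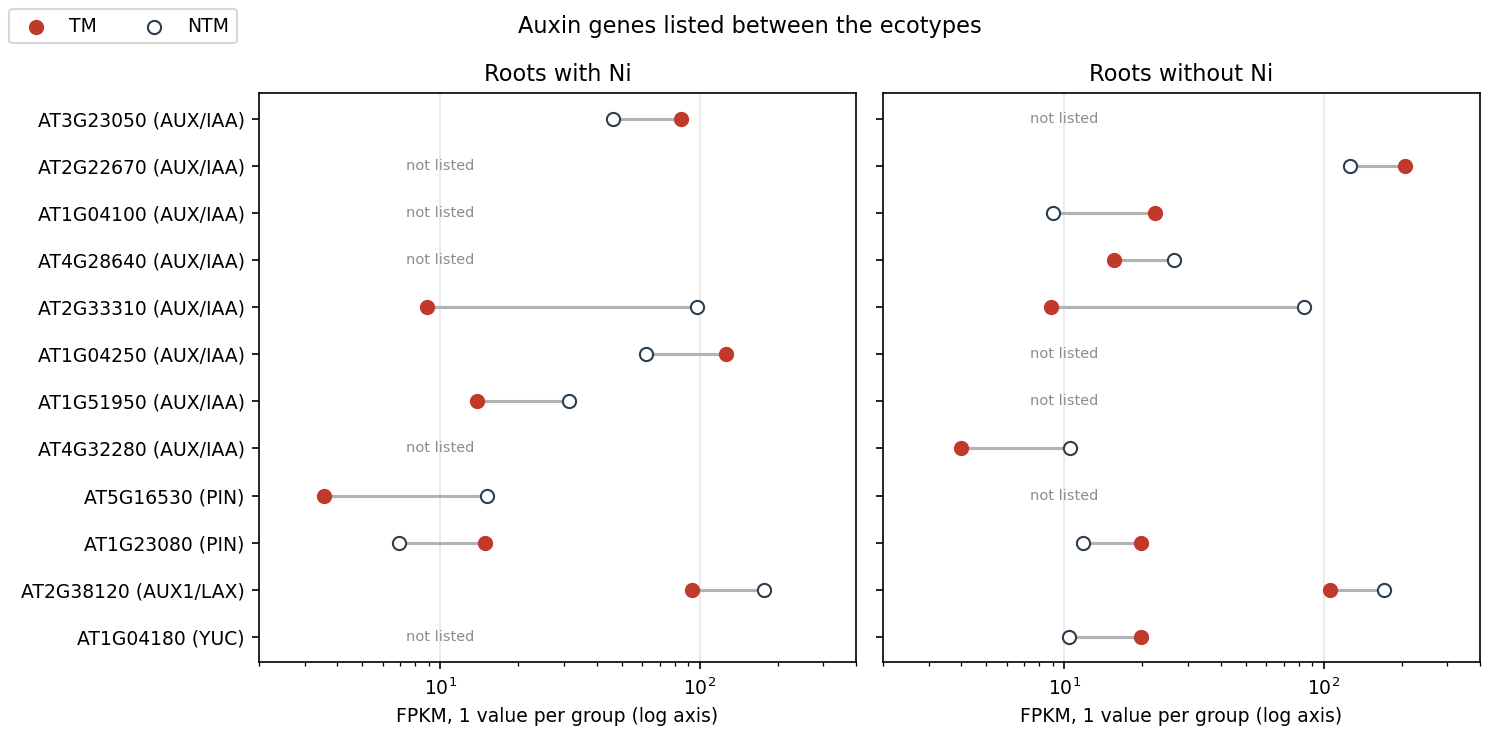
FPKM of the 12 listed auxin genes (rows, family in brackets) in TM (filled circles) and NTM (open circles) roots with Ni (left panel) and without Ni (right panel), on a log axis, with 1 value per group and no error. AT2G33310 has the widest gap in both panels, at 8.91 against 97.4 FPKM with Ni and 8.90 against 83.9 FPKM without Ni.

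Among the AUX/IAA repressors, AT2G33310 showed by far the widest difference between the ecotypes. With Ni it stood at 8.91 FPKM in TM and 97.4 FPKM in NTM, a TM over NTM log2 ratio of -3.44, and 61 of the 1944 listed genes had a lower ratio. Without Ni it stood at 8.90 FPKM in TM and 83.9 FPKM in NTM, a log2 ratio of -3.22, and 77 of the 4460 listed genes had a lower ratio. Its level was 10.9 times lower in TM than in NTM with Ni and 9.42 times lower without Ni, and the TM groups of both conditions, which share no library, had nearly the same level. In TM 79.4% of listed genes were above it with Ni and 66.9% without Ni, whereas in NTM it was among the more abundant listed genes, with 17.8% above it with Ni and 13.7% without Ni. Its locus in the deposited tables is chromosome 2, 14113025 to 14116087, 3063 bp in length. Whether reads of TM and NTM aligned equally well at this locus was not tested.

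The other AUX/IAA genes listed with Ni differed less, and in both directions. AT1G04250 (chromosome 1, 1136258 to 1138613) had 126.1 FPKM in TM and 62.1 FPKM in NTM, a log2 ratio of 1.02. AT3G23050 (chromosome 3, 8194679 to 8197153) had 84.4 FPKM in TM and 46.3 FPKM in NTM, a log2 ratio of 0.87. Both were higher in TM, by 2.03 and 1.82 times. AT1G51950 (chromosome 1, 19305315 to 19307510) had 13.9 FPKM in TM and 31.4 FPKM in NTM, a log2 ratio of -1.17 that centring on the median ratio moved to -0.27. None of these 3 genes was listed without Ni.

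Without Ni another set of AUX/IAA genes was listed beside AT2G33310. AT2G22670 (chromosome 2, 9636380 to 9638745) was the most abundant of them, with 206.3 FPKM in TM and 126.3 FPKM in NTM, a log2 ratio of 0.71. AT1G04100 (chromosome 1, 1059506 to 1061191) had 22.4 FPKM in TM and 9.07 FPKM in NTM, a log2 ratio of 1.29, the highest TM over NTM ratio of any listed member in either condition. Both of these repressor genes were higher in TM. AT4G28640 (chromosome 4, 14142130 to 14143969) had 15.6 FPKM in TM and 26.4 FPKM in NTM, a log2 ratio of -0.76, or -0.05 after centring. AT4G32280 (chromosome 4, 15583387 to 15584769) had 3.99 FPKM in TM and 10.5 FPKM in NTM, a log2 ratio of -1.38, or -0.67 after centring. These 2 genes were lower in TM, and AT4G32280 had the lowest TM level of the 8 members listed without Ni. The log2 ratio of AT2G22670 was smaller in size than any listed with Ni.

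**Figure D2:**
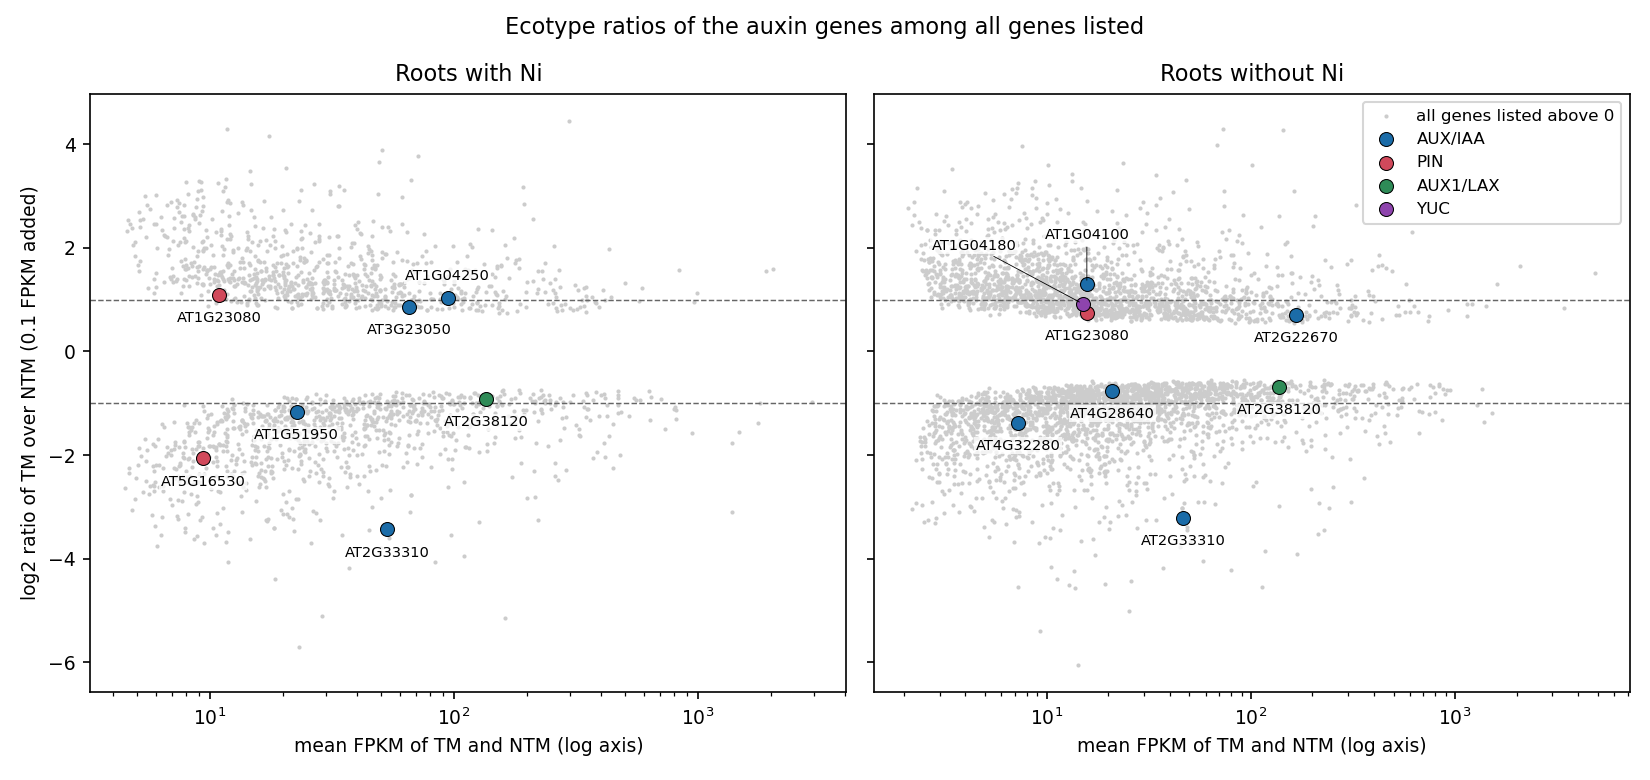
Log2 ratio of TM over NTM (vertical axis, 0.1 FPKM added) against the mean FPKM of the ecotypes (log axis) for the listed auxin genes, coloured by family, and for all listed genes above 0 in both groups (grey), with Ni (left) and without Ni (right). Dashed lines mark log2 ratios of 1 and -1, and 74 genes with Ni and 53 without Ni that stood at 0 in 1 ecotype are not drawn. AT2G33310 lies at -3.44 with Ni and -3.22 without Ni, with 61 and 77 listed genes lower, and the other members lie between -2.07 and 1.29.

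The PIN family had 2 listed members, which differed in opposite directions. AT1G23080 (chromosome 1, 8180577 to 8183570) was higher in TM in both conditions. With Ni it had 14.9 FPKM in TM and 6.92 FPKM in NTM, a log2 ratio of 1.09. Without Ni it had 19.8 FPKM in TM and 11.8 FPKM in NTM, a log2 ratio of 0.74. AT5G16530 (chromosome 5, 5400735 to 5402626) was listed only with Ni, with 3.54 FPKM in TM and 15.1 FPKM in NTM, a log2 ratio of -2.07. It had the second-widest gap among the members listed with Ni, and the lowest TM level of them, with 91.9% of listed genes above it in TM.

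The influx carrier family AUX1/LAX had 1 listed member, AT2G38120 (chromosome 2, 15972993 to 15977180), one of the most abundant auxin genes listed. With Ni it stood at 93.4 FPKM in TM and 176.9 FPKM in NTM, a log2 ratio of -0.92. Without Ni it stood at 105.6 FPKM in TM and 170.4 FPKM in NTM, a log2 ratio of -0.69. It was lower in TM in both conditions, but after centring on the median ratio of the table the log2 ratio was -0.01 with Ni and 0.02 without Ni. That median was -0.91 with Ni and -0.71 without Ni, at the inner edge of the genes lower in TM, because no gene near a ratio of 0 is listed.

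Of the synthesis genes among the members, only AT1G04180 of the YUC family (chromosome 1, 1104623 to 1105988) was listed, and only without Ni. It had 19.8 FPKM in TM and 10.4 FPKM in NTM, a log2 ratio of 0.92. YUC enzymes carry out the last step from tryptophan to auxin. No listed member stood at 0 in any group, and no member's locus overlapped another listed gene. The smallest gap was the 86 bp between AT1G04100 and the listed gene AT1G04090. The loci of the listed members were 1366 to 4188 bp long, beside medians of 1956.5 bp with Ni and 1913 bp without Ni over all listed genes.

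The remaining 48 members were in neither table, so neither an ecotype ratio nor a level can be given for them. The AUX/IAA members in neither table were AT4G14560, AT3G23030, AT1G04240, AT5G43700, AT1G15580, AT1G52830, AT5G65670, AT1G04550, AT4G14550, AT3G04730, AT3G15540, AT2G46990, AT3G16500, AT4G29080, AT5G25890, AT3G62100, AT3G17600, AT2G01200, AT5G57420 and AT1G15050. The unlisted PIN members were AT1G73590, AT5G57090, AT1G70940, AT2G01420, AT1G77110 and AT5G15100, and the unlisted AUX1/LAX members were AT5G01240, AT2G21050 and AT1G77690. All GH3 members were unlisted, namely AT2G14960, AT4G37390, AT2G23170, AT4G27260, AT5G54510, AT1G28130 and AT2G47750. The same held for the receptors AT3G62980, AT4G03190, AT3G26810 and AT1G12820 and for the ARF members AT1G19850, AT5G20730, AT1G19220, AT1G30330 and AT5G37020. The TAA1 member AT1G70560 and the YUC members AT1G04610 and AT4G28720 complete the unlisted genes.

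The Ni response, which the study was designed to compare between the ecotypes, could be formed for the 3 members with a value in all 4 groups, AT2G33310, AT1G23080 and AT2G38120. The methods describe a scaling over all libraries. Whether the tables of both conditions were in fact scaled together is not known from the files, so these ratios are a description. In TM 0 of the 3 passed a log2 ratio of Ni over control of 1 in size, where 4.6% of the 1131 genes in both tables did. In NTM 0 of the 3 passed it, where 8.13% of these genes did.

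AT2G33310 differed little between the conditions in either ecotype. In TM it stood at 8.91 FPKM with Ni and 8.90 FPKM in control roots, and 10 of the 1131 genes had a smaller change in size. Most of these 10 stood at 0 FPKM in both TM groups, which fixes their change at 0. In NTM it stood at 97.4 FPKM with Ni and 83.9 FPKM in control roots, a log2 ratio of Ni over control of 0.22, with 35.8% of the genes changing less. The gap between the ecotypes was therefore present without Ni.

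The efflux carrier gene AT1G23080 was lower with Ni in both ecotypes. In TM it had 14.9 FPKM with Ni and 19.8 FPKM in control roots, a log2 ratio of -0.41. In NTM it had 6.92 FPKM with Ni and 11.8 FPKM in control roots, a log2 ratio of -0.76, with 85.2% of the 1131 genes changing less. The order of its 4 levels, from high to low, was TM control, TM with Ni, NTM control and NTM with Ni, so the ecotype order held in each condition. Its log2 ratio of TM over NTM was 0.35 larger with Ni than without, within the middle 50% of such shifts over the 1131 genes, which ran from -0.43 to 0.38.

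The influx carrier gene AT2G38120 had 93.4 FPKM with Ni and 105.6 FPKM in control roots of TM, a log2 ratio of Ni over control of -0.18. In NTM it had 176.9 FPKM with Ni and 170.4 FPKM in control roots, a log2 ratio of 0.05. Both changes were smaller in size than the median change, which was 0.24 in TM and 0.32 in NTM over the 1131 genes. All 3 members were on the same side of NTM in both conditions, as were 1119 of the 1131 genes.

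**Figure D3:**
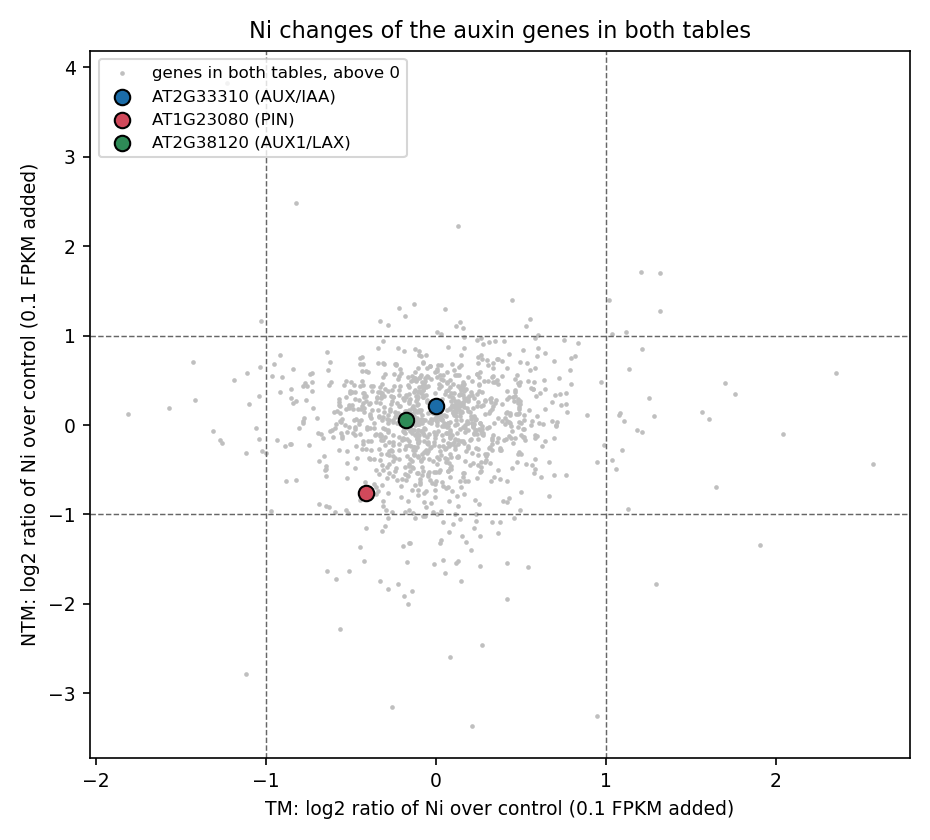
Log2 ratio of Ni over control in TM (horizontal axis) and NTM (vertical axis), with 0.1 FPKM added, for the 3 auxin genes in both tables and for the other genes in both tables (grey); dashed lines mark 1 and -1, and 16 genes listed at 0 in any group are not drawn. All 3 members lie inside the dashed lines, with AT1G23080 at -0.41 in TM and -0.76 in NTM and the other members closer to 0.

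The genes whose levels over the 4 groups ran most like those of the 3 members were found as the smallest distance between centred log2 values, over 4 group values from the same libraries. For AT2G33310 they were AT5G49960 (distance 0.08), AT3G57160 (0.22) and AT3G47210 (0.33). AT5G49960 had log2 ratios of TM over NTM of -3.55 with Ni and -3.24 without Ni. Its TM levels were low, at 0.91 FPKM with Ni and 0.94 FPKM without Ni, both under 1 FPKM. For AT1G23080 they were AT2G16750 (0.05), AT3G10080 (0.11) and AT5G08260 (0.14), and for AT2G38120 they were AT1G09560 (0.04), AT2G17150 (0.05) and AT1G80530 (0.06). Only 31 of these 1131 genes had a TM over NTM ratio below that of AT2G33310 with Ni, and 38 without Ni.

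A further 88 genes of auxin synthesis, metabolism, transport, perception and response were looked up by identifier, of which 19 were listed in at least 1 condition. Here too the share listed over all tested genes is not known. With Ni 3 were higher and 2 lower in TM, and without Ni 6 were higher and 11 lower. Past a log2 ratio of 1 were 2 higher and 2 lower with Ni and 3 higher and 6 lower without Ni. The median log2 ratio of the 17 genes listed without Ni was -0.63, beside -0.71 over all listed genes. The medians with Ni were 1.00 for the 5 genes listed, which is the value of AT1G66150 alone, and -0.91 for all listed genes. No small ratio is listed, so such a median follows the side that holds more genes. That side was higher in TM for 3 of the 5, while 53.8% of all 1944 listed genes were lower in TM.

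The list of further transport genes, such as ABCB and PILS transporters and kinases that act on PIN proteins, had 5 of 15 genes listed. Its AT5G55910 was the most different of them in both conditions. With Ni AT5G55910 had 227.7 FPKM in TM and 72.6 FPKM in NTM, a log2 ratio of 1.65, and without Ni it had 245.6 FPKM in TM and 68.6 FPKM in NTM, a log2 ratio of 1.84. As with the efflux carrier gene AT1G23080, both TM levels were above both NTM levels. AT2G47000 of the same list was lower in TM, with 32.8 FPKM in TM and 66.2 FPKM in NTM with Ni. In control roots it had 43.6 FPKM in TM and 67.3 FPKM in NTM. Centring on the median ratio put its log2 ratio at -0.10 with Ni and 0.08 without Ni. Without Ni AT3G14370 and AT1G71090 were higher in TM, with log2 ratios of 1.19 and 0.71, and AT1G76520 was lower, with -1.32. After centring these ratios were 1.90, 1.42 and -0.61 in this order.

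None of the 5 ARF members was listed, but of the 10 other ARF genes 4 were, all without Ni and all lower in TM, where 55.5% of all listed genes were lower. AT1G59750 had 35.0 FPKM in TM and 57.4 FPKM in NTM, AT2G33860 had 30.4 and 46.7 FPKM in the same order, AT2G46530 had 9.78 and 20.4 FPKM, and AT3G61830 had 42.7 and 65.8 FPKM. Their log2 ratios ran from -1.05 to -0.62. Centring on the median ratio moved all 4 toward 0 or past it, with AT2G33860 and AT3G61830 at 0.09 each, AT1G59750 at -0.0045 and AT2G46530 at -0.35. It must do so for any gene modestly lower in TM, because the median lies at the inner edge of those genes. Of the 15 further perception and repression genes 3 were listed. AT1G75950 (206.2 FPKM in TM and 437.0 FPKM in NTM) and AT4G02980 (13.0 FPKM in TM and 27.9 FPKM in NTM) were lower in TM without Ni, and AT1G66150 was higher with Ni (40.4 FPKM in TM and 20.2 FPKM in NTM). After centring, their log2 ratios were -0.38, -0.39 and 1.91 in this order.

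Of 11 further synthesis genes 1 was listed, the YUC gene AT5G43890, which is not among the members. It had 11.7 FPKM in TM and 1.56 FPKM in NTM with Ni, a log2 ratio of 2.83. It was not listed without Ni. Of the 14 genes of auxin conjugation, hydrolysis and oxidation 2 were listed, both lower in TM. AT1G05680 had 3.53 FPKM in TM and 14.6 FPKM in NTM with Ni and 5.92 FPKM in TM and 11.2 FPKM in NTM without Ni. After centring, its log2 ratio was -1.11 with Ni and -0.20 without Ni. AT4G03400, a GH3 gene that is not among the members, had 3.57 FPKM in TM and 9.69 FPKM in NTM without Ni. Its log2 ratio was -1.42, or -0.71 after centring.

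Among 23 auxin response targets of the SAUR and LBD families 4 were listed, all without Ni. AT1G16510 and AT2G45210 of the SAUR family were higher in TM, with log2 ratios of 0.81 and 0.84. The neighbouring LBD genes AT2G42430 and AT2G42440 differed in opposite directions. AT2G42430 had 8.16 FPKM in TM and 17.4 FPKM in NTM, a log2 ratio of -1.08, and AT2G42440 had 5.83 FPKM in TM and 1.62 FPKM in NTM, a log2 ratio of 1.79. After centring, AT2G42430 was at -0.37 and AT2G42440 at 2.49.

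Markers of tissue could be read only where they were listed. Of 10 root markers 1 was listed, AT3G54220, with 10.8 FPKM in TM and 18.5 FPKM in NTM without Ni. Of 8 genes of the photosynthetic shoot 3 were listed, and none of them stood at 0. AT1G29920 was lower in TM in both conditions, with 12.5 FPKM in TM and 35.9 FPKM in NTM with Ni and 8.66 FPKM in TM and 36.9 FPKM in NTM without Ni. AT2G34430, listed with Ni only, had 45.4 FPKM in TM and 6.80 FPKM in NTM, and AT1G29910, listed without Ni only, had 26.7 FPKM in TM and 88.8 FPKM in NTM. The listed shoot genes thus differed in both directions with Ni, whereas without Ni both were lower in TM. The listed ones summed to 57.9 FPKM in TM and 42.7 FPKM in NTM with Ni and to 35.4 FPKM in TM and 125.8 FPKM in NTM without Ni, over pairs that share only AT1G29920. These shoot genes have near-identical copies, so their single values are uncertain, and their part in the auxin values was not tested. In bulk roots, a smaller share of the cells that express a gene and less RNA per cell cannot be told apart.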

How the data were processed

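Roots of 12 libraries in 4 groups were measured by RNA-seq. The authors trimmed reads with cutadapt 1.8.1, mapped them to *A. thaliana* (TAIR10 in the submitters' processing notes) with HISAT2 2.1.0 and ran Cuffdiff of Cufflinks 2.2.1. The deposited FPKM values were scaled by the authors with geometric normalization, 1 per gene and group (the group files are headed TPM, the methods give FPKM, and which is right was not settled). Reads of *N. goesingensis* that align poorly to *A. thaliana* lower a value, and whether this differed between the ecotypes was not tested. The deposited comparison tables also hold the authors' fold change and unadjusted p-value of TM against NTM. The fold changes were not used, and the p-values were read only to find that all listed genes were under 0.05. Group files and comparison tables differed in 0 values, each of the 8 value columns belonged to a known group, and 0 columns of single samples were unused. Locus starts are printed counting from 1.

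Members were found by identifier. Log2 ratios took a pseudocount of 0.1 FPKM, and ratios past 1 in size were counted, without a test. Alternatives were 1 FPKM as pseudocount, a minimum of 1 FPKM in both groups, centring on the median ratio and a threshold of 1.5-fold. Every listed member is named. For members in both tables, the 3 nearest profiles are named. Members and lists were chosen with earlier results of these data known. Families, lists and roles were set from the *A. thaliana* identifiers, and no reference annotation was used. Python 3.11.15, numpy 2.4.6, pandas 2.3.3 and matplotlib 3.10.9 were used.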

Additional observations from a re-analysis of the deposited data

How the results depend on the processing

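With 1 value per group, no library could be left out, and no depth or error could be weighed. No paired analysis was possible because the files hold no values per library. A pseudocount of 1 FPKM and a minimum of 1 FPKM in both groups changed no count of members past the threshold and no member's side of it. Centring each table on its median ratio gave 5 members past the threshold without Ni in place of 3 (55.9% of all listed genes), since that median lies among the genes lower in TM. A threshold of 1.5-fold gave 7 with Ni (100% of all listed genes), 8 without Ni (99.6%), and 1 in place of 0 for the Ni change in NTM (23.5%), as a lower threshold must raise counts. The same centring of the further auxin genes was added after seeing the data. The members listed as higher in TM, at any size, numbered 3 with Ni and 4 without Ni, 3 and 5 after centring, and 3 and 4 under the 1 FPKM minimum. The unit of the values, FPKM or TPM, could not be settled from the files.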
